A study of Mus musculus with 18 samples.

Results

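Lysine acetylation is written by acetyltransferases, removed by deacetylases and read by bromodomains, and the expression of 52 genes of these kinds was followed in AT3 cells. The genes were taken by symbol from a fixed set of 15 acetyltransferase genes, 16 deacetylase genes and 21 genes whose proteins are best known for a bromodomain, out of 43629 gene rows measured. Ep300 and Crebbp, whose products P300 and CBP are the targets of both inhibitors used, are among them. The rule used no measured value, but the genes were chosen with earlier results of these data known.

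AT3 is a mouse mammary carcinoma cell line that the study used as a model of triple-negative breast cancer, and all libraries came from this 1 line grown in culture. Messenger RNA was sequenced from its 3′ ends in 18 libraries, 3 in each of 6 groups. Cells received DMSO vehicle, A-241 at 250 nM or A-485 at 1000 nM for 1 h, and then recombinant murine IFNγ or none for another 2 h, so that all cells were collected at 3 h. The groups were DMSO, A-241, A-485, IFNγ, A-241 with IFNγ and A-485 with IFNγ, and every group thus carried either an inhibitor or its vehicle. Both compounds are described in the labels as inhibitors of the catalytic activity of P300/CBP. The labels call the replicates biological and the study's methods call them technical, so p-values measure the spread between these libraries, which may be technical.

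P300 and CBP are closely related enzymes that acetylate histone H3 at lysines of enhancers and promoters, and are recruited there by transcription factors. Other acetyltransferases work in larger assemblies, such as KAT2A and KAT2B in SAGA and ATAC, KAT5 in NuA4, and KAT6A, KAT6B, KAT7 and KAT8 in the MYST complexes. Class I deacetylases are the catalytic subunits of the SIN3, NuRD, CoREST and NCoR corepressors, class IIa deacetylases act mainly as signal-controlled partners of transcription factors, and sirtuins need NAD+. Bromodomain proteins bind acetylated lysine and include the BET proteins, which support transcription elongation, and ATPases of the SWI/SNF remodelers.

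Libraries held 3417167 to 7856830 counts, with a median of 4880947.5, and the 52 genes together held 9491 to 23025 counts in each. Cells of the line kept epithelial Krt8, Krt18, Epcam and Cdh1 in all 18 libraries, while Krt19 had 1 count in all. The macrophage gene Adgre1 and the endothelial gene Cdh5 had 0 counts. Other leukocyte markers were found, at 856 counts of Lyz2, 202 of Ptprc and 14 of Cd3e, as was endothelial Pecam1 at 166. The fibroblast markers Col1a1 and Pdgfra had 50 and 84 counts. The leukocyte markers summed to 1.56 to 40.2 CPM (counts scaled to the total of a library). They were highest in A-485 replicates 1 and 3 (40.2 and 35.3 CPM) and A-241 with IFNγ replicate 3 (27.9 CPM). In DMSO the highest sum was 12.6 CPM, in replicate 3, and the source of these counts was not tested. The levels of the 52 genes given as CPM use totals corrected by edgeR's TMM factors. Gm42418 took 7.11 to 23.0% of a library's counts, and was highest in DMSO replicate 3 (20.1%) and IFNγ replicate 2 (23.0%), which also had the lowest summed epithelial markers of the 18 libraries (557 and 479 CPM). The fit was repeated without both, and values from that fit are given beside those of all libraries where the sign turned or the value moved by over 1.5 times. Of the epithelial and mesenchymal markers, Krt18 and Vim were called lower with A-241 on average, at -0.67 and -0.74 on the log2 scale, while Krt8, Epcam, Cdh1 and Cdh2 were not called, and the part of this in the results was not tested. In bulk RNA, fewer cells of a type and less RNA per cell cannot be told apart.

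Of the 52 genes, 49 passed the filter on low counts and were among the 11964 genes tested. Hdac9, a class IIa deacetylase, had 2 counts over all 18 libraries. Cecr2, the bromodomain partner of an ISWI-type remodeler, had 17, and Hdac11, the class IV deacetylase, had 100, with 1 to 14 in a library. A count of 3 corresponds to 0.382 to 0.878 CPM in these libraries, a limit that covers counting error only, and levels of these 3 genes are not compared.

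With A-241, the bromodomain gene Brd2 and the deacetylase gene Sirt1 were higher by 1.11 and 1.14 on the log2 scale, and Hdac1 and Ep300 rose by less. Hdac7, Hdac4 and Smarca2 fell. These values are averages over cells without and with IFNγ, and 7 of the 49 genes passed edgeR's quasi-likelihood test there (adjusted p below 0.01), 4 of them higher and 3 lower. This is 14.3% of the genes tested, beside 10.4% of all genes, of which 3.39% were called higher and 7.05% lower. The median log2 fold change of the 49 genes was -0.000625 and that of all genes 0.00144. Without DMSO replicate 3 and IFNγ replicate 2 the same 7 genes were called, with Crebbp and Sirt7, beside 16.0% of all genes. The values of 16 of the 49 genes, none of them called, then turned sign, 11 were below 0 where 25 had been, and the median of the 49 became 0.14 and that of all genes 0.01. No gene of the 49 was called with A-485 averaged in the same way, where 2.59% of all genes were, and none with IFNγ averaged over its 3 comparisons, where 2.01% of all genes were.

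**Figure D1:**
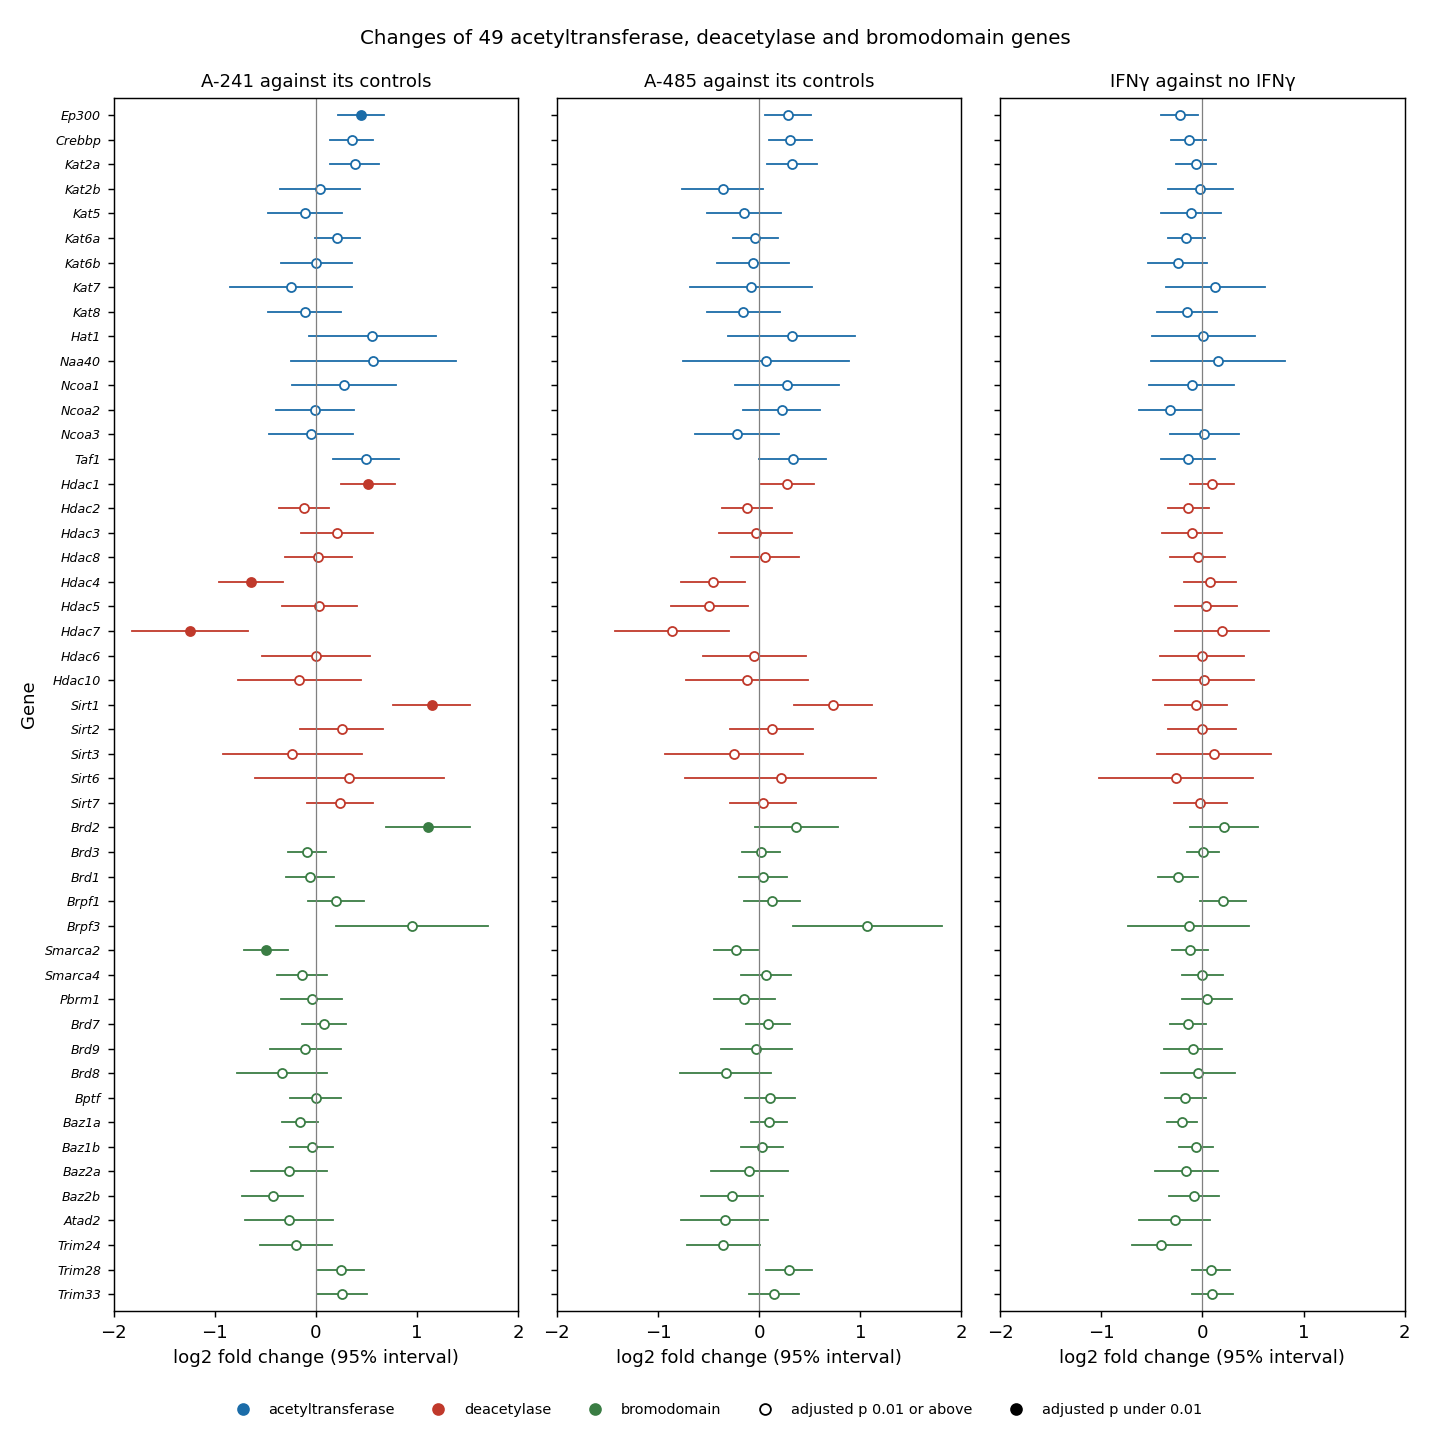
Log2 fold change (x axis, point) with its 95% interval (line) for the 49 genes tested (y axis, ordered by role) with A-241, A-485 and IFNγ, each averaged over its comparisons. Filled points have an adjusted p under 0.01: 7 genes with A-241, among them Sirt1 (1.14), Brd2 (1.11) and Hdac7 (-1.25), and none with A-485 or IFNγ.

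The promoters of 6 of the 7 genes called with A-241, 3 higher and 3 lower, are printed so that their letters can be compared, and Hdac1 had no entry. Each runs from 250 bases before to 50 bases after a RefSeq start site on GRCm38.p6, 5′ to 3′ on the strand of its gene, and capitals mark letters that match 1 of 9 short motifs searched on both strands. The Brd2 window is at chr17:34122558-34122857, minus strand, that of Sirt1 at chr10:63338986-63339285, minus strand, that of Ep300 at chr15:81585964-81586263, plus strand, that of Smarca2 at chr19:26604910-26605209, plus strand, that of Hdac4 at chr1:92180292-92180591, minus strand, and that of Hdac7, the 1 of its 4 windows at the outermost annotated start, at chr15:97844453-97844752, minus strand.
Brd2: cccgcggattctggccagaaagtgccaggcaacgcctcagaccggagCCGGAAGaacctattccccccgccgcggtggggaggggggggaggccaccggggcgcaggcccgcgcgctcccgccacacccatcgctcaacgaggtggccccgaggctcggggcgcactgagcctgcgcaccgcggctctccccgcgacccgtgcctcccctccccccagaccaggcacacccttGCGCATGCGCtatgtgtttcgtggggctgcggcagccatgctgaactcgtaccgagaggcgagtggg
Sirt1: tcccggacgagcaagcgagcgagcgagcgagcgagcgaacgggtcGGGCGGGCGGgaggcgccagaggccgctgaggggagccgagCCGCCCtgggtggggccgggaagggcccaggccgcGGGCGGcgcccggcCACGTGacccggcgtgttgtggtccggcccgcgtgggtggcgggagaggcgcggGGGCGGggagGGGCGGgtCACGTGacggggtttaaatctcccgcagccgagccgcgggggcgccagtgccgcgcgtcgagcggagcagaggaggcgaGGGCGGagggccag
Ep300: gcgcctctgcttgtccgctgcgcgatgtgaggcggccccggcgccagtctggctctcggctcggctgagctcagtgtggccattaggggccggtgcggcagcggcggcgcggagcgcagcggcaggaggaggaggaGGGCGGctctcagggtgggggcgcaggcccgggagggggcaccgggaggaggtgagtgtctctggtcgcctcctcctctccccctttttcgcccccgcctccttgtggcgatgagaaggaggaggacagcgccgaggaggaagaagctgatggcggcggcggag
Smarca2: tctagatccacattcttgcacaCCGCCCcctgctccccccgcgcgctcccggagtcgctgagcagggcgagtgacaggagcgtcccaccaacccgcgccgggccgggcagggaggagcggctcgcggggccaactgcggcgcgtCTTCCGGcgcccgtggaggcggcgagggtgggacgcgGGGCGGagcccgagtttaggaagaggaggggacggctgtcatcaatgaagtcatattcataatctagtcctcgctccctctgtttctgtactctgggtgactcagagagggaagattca
Hdac4: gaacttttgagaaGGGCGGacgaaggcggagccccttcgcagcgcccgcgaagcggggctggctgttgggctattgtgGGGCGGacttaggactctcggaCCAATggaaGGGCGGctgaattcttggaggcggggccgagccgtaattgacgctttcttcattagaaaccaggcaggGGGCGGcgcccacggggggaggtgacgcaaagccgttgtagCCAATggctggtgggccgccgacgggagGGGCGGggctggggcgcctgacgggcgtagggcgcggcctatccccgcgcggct
Hdac7: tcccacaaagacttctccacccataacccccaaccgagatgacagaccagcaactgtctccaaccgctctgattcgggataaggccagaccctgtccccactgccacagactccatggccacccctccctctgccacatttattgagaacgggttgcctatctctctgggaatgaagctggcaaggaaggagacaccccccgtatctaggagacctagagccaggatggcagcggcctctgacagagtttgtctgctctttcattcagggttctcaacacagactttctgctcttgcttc
The Brd2 window held 1 ETS site (CCGGAAG) and 1 NRF1 site (GCGCATGCG) that matched on both strands with overlap. The Sirt1 window held 7 GC boxes (GGGCGG), of which 2 overlap each other, and 2 E-boxes (CACGTG). The Ep300 window held 1 GC box, and the Smarca2 window 2 GC boxes and 1 ETS site. The Hdac4 window held 5 GC boxes and 2 CCAAT boxes, and the Hdac7 window, with 6 CpG, no match. The Sirt1 window lies 42669 bases from the outermost start annotated for the gene, the Ep300 window 863 bases and the Hdac4 window 15358 bases.

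Windows could be matched for 41 of the 52 genes, in 55 windows. These were rich in CpG, with a median of 25 CpG and 64.7% G and C in a window, beside 7 and 52.7% in all 32841 RefSeq windows. All windows also cover genes that failed the filter on low counts. Differences from them, here and for the motifs below, are thus not shown to be particular to these genes. A GC box was found in 39 of the 55 windows and in 35.7% of all windows, and an ETS site in 12 of 55 and in 8.86%. The CCAAT box was in 17 of 55 windows and in 37.4% of all, and the TATA box (TATAAA) in 3 of 55 and in 13.6%. Of motifs tied to signalling, the CRE (TGACGTCA) was in 1 of 55 windows and 1.79% of all, the ISRE (GAAANNGAA) in 4 and 8.56%, and the GAS element (TTCNNNGAA) in 5 and 8.30%. E-boxes were in 6 of 55 windows and 7.15% of all, and the NRF1 site in 3 and 1.75%. Matches describe the letters of these windows and say nothing of binding.

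Ep300, which encodes P300 (ENSMUSG00000055024, chromosome 15, 81585351 to 81652077, plus strand, GRCm38), was higher with A-241. Ep300 was at 24.0, 23.9 and 21.0 CPM in DMSO and at 26.6, 32.6 and 36.8 CPM with A-241. Ep300 in the IFNγ-treated cells was at 18.6, 19.6 and 19.9 CPM without inhibitor and at 23.7, 27.3 and 26.8 CPM with A-241. The corresponding Ep300 values with A-485 were 25.7, 28.9 and 26.0 CPM without IFNγ and 23.9, 22.4 and 27.9 CPM with it. All 3 A-241 libraries lay above all 3 vehicle libraries, in cells without and in cells with IFNγ. The share of all genes separated within an arm is not given, here and below, so such separation shows no trait of a gene. Over both arms Ep300 overlapped, with A-241 with IFNγ replicate 1 at 23.7 CPM against 24.0 and 23.9 CPM in DMSO. The log2 fold change was 0.47 ± 0.15 (SE) without IFNγ, 0.42 ± 0.15 with it and 0.45 ± 0.11 (SE, edgeR adjusted p = 0.00715) on average. The average kept its call without A-241 replicate 1, A-485 replicate 3, A-241 with IFNγ replicate 1, or A-485 with IFNγ replicate 2 or 3, and lost it without any 1 of the other 13 libraries, at adjusted p values up to 0.0345 without A-241 with IFNγ replicate 3, with values between 0.39 and 0.50.

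Crebbp, which encodes CBP (ENSMUSG00000022521, chromosome 16, 4081328 to 4213997, minus strand), had a like difference that was not called. Crebbp was at 82.9, 69.9 and 82.4 CPM in DMSO and at 87.5, 103 and 109 CPM with A-241. Crebbp in the IFNγ-treated cells was at 72.4, 70.4 and 63.9 CPM without inhibitor and at 82.1, 90.8 and 91.4 CPM with A-241. The corresponding Crebbp values with A-485 were 89.1, 101 and 86.9 CPM without IFNγ and 91.7, 77.8 and 99.3 CPM with it. The A-241 libraries again lay above the vehicle libraries within each arm, with a narrow gap in the cells without IFNγ. Over both arms they overlapped, with A-241 with IFNγ replicate 1 at 82.1 CPM against 82.9 and 82.4 CPM in DMSO. Its average log2 fold change was 0.35 ± 0.10 (SE, edgeR adjusted p = 0.0211) with A-241 and 0.31 ± 0.10 (SE, edgeR adjusted p = 0.0858) with A-485. With A-241 it was called without DMSO replicate 3 and IFNγ replicate 2 (0.38, adjusted p = 0.00853), by DESeq2 (0.33, adjusted p = 0.00494), and also on total counts, where the median of all genes was shifted up (0.49, adjusted p = 0.00524).

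The other 13 acetyltransferase genes gave no call with A-241 on average. Kat2a, the catalytic subunit of SAGA and ATAC, came nearest together with Taf1, the bromodomain-bearing scaffold subunit of TFIID. Kat2a was at 37.2, 30.1 and 36.9 CPM in DMSO and 44.1, 53.8 and 48.1 CPM with A-241, and its average was 0.38 ± 0.12 (SE, edgeR adjusted p = 0.0293). The average of Taf1 was 0.50 ± 0.15 (SE, edgeR adjusted p = 0.0330), and 0.31 (adjusted p = 0.0447) without DMSO replicate 3 and IFNγ replicate 2. For the other GNAT gene Kat2b and the MYST genes with Kat5 the A-241 averages with all libraries and without those 2 were Kat2b (0.04 and 0.16), Kat5 (-0.11 and 0.10), Kat6a (0.21 and 0.25), Kat6b (0.00424 and 0.12), Kat7 (-0.25 and 0.36) and Kat8 (-0.11 and 0.07). Kat7 was at 78.9, 57.5 and 160.0 CPM in DMSO and 53.3, 186 and 76.8 CPM with IFNγ, where the high value of each group is that of the library left out, and its sign turned with that of Kat5 and Kat8. Kat5 shares 426 exon bases with Rnaseh2c on the other strand, and a read on both was counted for each. The cytosolic histone acetyltransferase gene Hat1 and Naa40, whose product acetylates the N-termini of histones H2A and H4, had averages of 0.56 ± 0.30 and 0.57 ± 0.38 (SE), and of 0.21 and 0.21 without those 2 libraries. The nuclear receptor coactivators, in the same pairs of values, were Ncoa1 (0.28 and 0.39), Ncoa2 (-0.01 and 0.14) and Ncoa3 (-0.05 and 0.16). Over the 15 acetyltransferase genes 10 values were above 0 with all libraries and 15 without those 2, and the median was 0.21 in both. Over all genes the medians were 0.00144 and 0.01, with 48.3% below 0 without those 2. The same libraries enter the value of each gene, so the signs are not independent of each other.

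Sirt1, an NAD+-dependent deacetylase of histones and transcription factors (ENSMUSG00000020063, chromosome 10, 63319005 to 63381704, minus strand), had the smallest adjusted p of the 49 genes with A-241. Sirt1 was at 8.83, 6.62 and 6.55 CPM in DMSO and at 18, 13.6 and 11.8 CPM with A-241. Sirt1 in the IFNγ-treated cells was at 6.13, 3.86 and 6.98 CPM without inhibitor and at 14.1, 14.2 and 15.0 CPM with A-241. The corresponding Sirt1 values with A-485 were 10, 8.38 and 12.5 CPM without IFNγ and 8.21, 13.2 and 12.9 CPM with it. The 6 libraries with A-241 did not overlap the 6 without inhibitor, as for 4.00% of all genes in that direction. The log2 fold change of Sirt1 was 0.97 ± 0.25 (SE, edgeR adjusted p = 0.0227) without IFNγ, 1.31 ± 0.25 (SE, edgeR adjusted p = 0.00343) with it and 1.14 ± 0.18 (SE, edgeR adjusted p = 0.000262) on average. The average was called with each library left out, at 1.04 to 1.22. The value with IFNγ lost its call without IFNγ replicate 1 (1.36, adjusted p = 0.0128) and without each replicate of A-241 with IFNγ (1.25 to 1.33, adjusted p up to 0.0168). Sirt1 counts were few, at 972 over all libraries.

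The other 4 sirtuin genes gave no call with A-241 and all libraries, at averages with all libraries and without DMSO replicate 3 and IFNγ replicate 2 of Sirt2 (0.25 and 0.01), Sirt3 (-0.23 and -0.03), Sirt6 (0.33 and 0.42) and Sirt7 (0.24 and 0.50). Sirt3, the mitochondrial deacetylase, shares exon bases with Psmd13, which had 86565 counts to 198 for Sirt3, and its value is uncertain for that reason. Sirt6 had 185 counts in all libraries, with 3 in the lowest, and its values are uncertain for that reason. Sirt7 shares 124 exon bases with Mafg, which had 8430 counts to 4012. Sirt7 was called without those 2 libraries (adjusted p = 0.000486).

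Hdac1, the catalytic subunit shared by several class I corepressor complexes (ENSMUSG00000028800, chromosome 4, 129516104 to 129542713, minus strand), was higher with A-241. Hdac1 was at 105, 109 and 83.8 CPM in DMSO and at 142, 161 and 159.6 CPM with A-241. Hdac1 in the IFNγ-treated cells was at 128, 82.6 and 133 CPM without inhibitor and at 149.6, 142 and 162 CPM with A-241. The corresponding Hdac1 values with A-485 were 119.8, 139 and 116 CPM without IFNγ and 122, 147 and 134 CPM with it. The 6 A-241 libraries were above the 6 without inhibitor, as for 4.00% of all genes in that direction. The lowest Hdac1 values were those of DMSO replicate 3 and IFNγ replicate 2. The average log2 fold change was 0.52 ± 0.12 (SE, edgeR adjusted p = 0.00798). Without both of those libraries it was 0.36 (adjusted p = 0.00500). The call of Hdac1 held in 3 of 18 fits with 1 library left out, those without DMSO replicate 2, IFNγ replicate 1 or IFNγ replicate 3, and was lost in the other 15 at values of 0.41 to 0.54 and adjusted p up to 0.0379, without A-241 with IFNγ replicate 3. Its close paralog Hdac2 had an average of -0.11 ± 0.12 (SE), and Hdac3, the NCoR enzyme, and Hdac8 had 0.21 ± 0.17 and 0.02 ± 0.16. Without DMSO replicate 3 and IFNγ replicate 2 these were 0.04, -0.01 and 0.24, so that the signs of Hdac2 and Hdac3 turned.

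Hdac7 and Hdac4 encode class IIa deacetylases, which bind MEF2 factors and shuttle between nucleus and cytoplasm, and both fell with A-241. Hdac7 was at 53.4, 45.2 and 101 CPM in DMSO and at 21.8, 29.2 and 28.0 CPM with A-241. Hdac7 in the IFNγ-treated cells was at 47.8, 130.2 and 37.3 CPM without inhibitor and at 36.7, 27.0 and 31.5 CPM with A-241. The corresponding Hdac7 values with A-485 were 39.3, 27.6 and 38.3 CPM without IFNγ and 40.5, 40.0 and 40.6 CPM with it. The 6 libraries with A-241 lay below all 6 without inhibitor, as for 5.66% of all genes in that direction. DMSO replicate 3 and IFNγ replicate 2 stood far above the other replicates of their groups. The average log2 fold change of Hdac7 (ENSMUSG00000022475, chromosome 15, 97792664 to 97844502, minus strand) was -1.25 ± 0.27 (SE, edgeR adjusted p = 0.00373), and it was -0.67 (adjusted p = 0.000396) without those 2 libraries. The call was lost without A-241 replicate 1 (-1.19, adjusted p = 0.0131) or without A-241 with IFNγ replicate 2 (-1.19, adjusted p = 0.0126).

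Hdac4 was at 51.1, 33.9 and 61.7 CPM in DMSO and at 29.0, 30.0 and 23.5 CPM with A-241. Hdac4 in the IFNγ-treated cells was at 39.1, 62.7 and 42.4 CPM without inhibitor and at 32.6, 34.0 and 37.2 CPM with A-241. The corresponding Hdac4 values with A-485 were 35.0, 35.6 and 38.0 CPM without IFNγ and 35.7, 30.3 and 35.8 CPM with it. Within the cells with IFNγ and within those without it, each A-241 value of Hdac4 was below each vehicle value, while DMSO replicate 2 lay below the highest A-241 values of the cells with IFNγ. The average log2 fold change of Hdac4 (ENSMUSG00000026313, chromosome 1, 91928779 to 92195699, minus strand) was -0.64 ± 0.15 (SE, edgeR adjusted p = 0.00605), and it was -0.43 (adjusted p = 0.00673) without DMSO replicate 3 and IFNγ replicate 2. The call was lost without DMSO replicate 1 or 3, without any A-241 replicate, or without A-241 with IFNγ replicate 1 or 2, at -0.68 to -0.54 and adjusted p up to 0.0206. The remaining class IIa gene tested, Hdac5, had an average of 0.03 ± 0.17 (SE), and the class IIb genes Hdac6, a cytoplasmic tubulin deacetylase, and Hdac10, a polyamine deacetylase, had -0.000625 and -0.16, and 0.34 and 0.09 without DMSO replicate 3 and IFNγ replicate 2.

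Brd2, a BET protein gene (ENSMUSG00000024335, chromosome 17, 34112023 to 34122634, minus strand), was the only gene counted here as a bromodomain gene to be called higher with A-241 on average. Brd2 was at 291, 285 and 143 CPM in DMSO and at 596, 394 and 438 CPM with A-241. Brd2 in the IFNγ-treated cells was at 331, 183 and 271 CPM without inhibitor and at 663, 679 and 507 CPM with A-241. The corresponding Brd2 values with A-485 were 259, 296 and 369 CPM without IFNγ and 293, 395 and 332 CPM with it. Every A-241 library was above every library without inhibitor, as for 4.00% of all genes in that direction. The lowest Brd2 values were again in DMSO replicate 3 and IFNγ replicate 2. The log2 fold change of Brd2 was 0.99 ± 0.28 (SE, edgeR adjusted p = 0.0339) without IFNγ, 1.23 ± 0.28 (SE, edgeR adjusted p = 0.00995) with it and 1.11 ± 0.20 (SE, edgeR adjusted p = 0.000741) on average. Without both of those libraries the average was 0.87 (adjusted p = 7.44e-05), and it was called with each library left out. The value with IFNγ alone, just under the threshold, kept its call only without DMSO replicate 3 and lost it without each of the other 17, at 1.03 to 1.44 and adjusted p up to 0.0418. Its BET relative Brd3 had an average of -0.09 ± 0.09 (SE). The exons of Brd2 overlap 360 bases of H2-DMa, which had 35 counts over all libraries to 34923 for Brd2.

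Brd2 took 0.0121 to 0.0756% of all counts in the 18 libraries. The 52 genes took 0.269 to 0.304% of the counts in the libraries without inhibitor, 0.315 to 0.374% with A-241 and 0.306 to 0.323% with A-485. Without Brd2 these shares were 0.244 to 0.275%, 0.264 to 0.309% and 0.266 to 0.292%, and the libraries with A-241 then overlapped those without inhibitor. The shares are of all counts, Gm42418 included. On total counts the median log2 fold change of all genes was also above 0, at 0.13 with A-241 and 0.08 with A-485 on average. That of the listed genes tested was 0.15 and 0.12, so the higher shares are not shown to be particular to these genes.

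Smarca2, which encodes the SWI/SNF ATPase BRM (ENSMUSG00000024921, chromosome 19, 26605050 to 26778322, plus strand), fell with A-241. Smarca2 was at 178, 167 and 185 CPM in DMSO and at 119.8, 116 and 125 CPM with A-241. Smarca2 in the IFNγ-treated cells was at 130.5, 187 and 145 CPM without inhibitor and at 124, 112 and 106 CPM with A-241. The corresponding Smarca2 values with A-485 were 135, 152 and 147 CPM without IFNγ and 129, 132 and 149.9 CPM with it. The A-241 libraries lay below all libraries without inhibitor, as for 5.66% of all genes in that direction, and also below all 6 libraries with A-485, as for 2.59% of all genes. The average log2 fold change was -0.50 ± 0.10 (SE, edgeR adjusted p = 0.00282), called with each library left out at -0.55 to -0.43. The alternative ATPase gene Smarca4 had an average of -0.14 ± 0.12 (SE), and -0.02 without DMSO replicate 3 and IFNγ replicate 2. The SWI/SNF genes had, with all libraries and without those 2, Pbrm1 (-0.04 and -0.17), Brd7 (0.08 and 0.21) and Brd9 (-0.11 and 0.17).

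**Figure D2:**
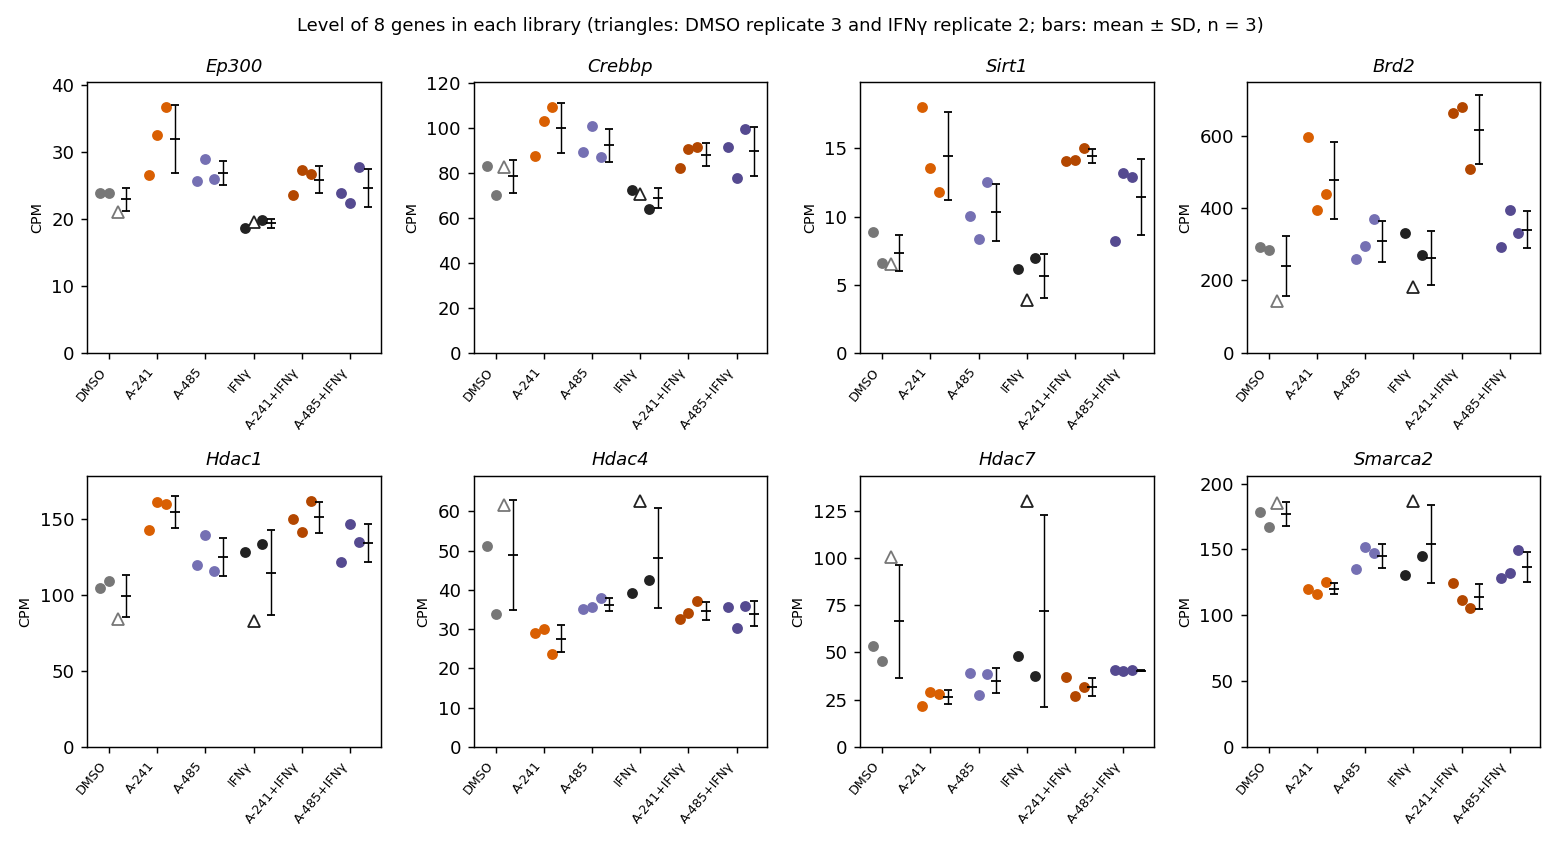
Level in CPM (y axis, from 0) of 8 genes in each of the 18 libraries by group (x axis), with the group mean ± SD (n = 3). Triangles mark DMSO replicate 3 and IFNγ replicate 2, where Hdac7 stood at 101 and 130.2 CPM against at most 53.4 CPM in the other libraries without inhibitor.

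Of the 7 genes called with A-241 on average, Sirt1 and Brd2 kept their calls under each of the other settings, and the other 5 lost theirs under some of them with no change of sign. With only the groups compared in the fit, the adjusted p was 0.0317 for Ep300, 0.0380 for Hdac1, 0.0296 for Hdac4, 0.0211 for Hdac7 and 0.0168 for Smarca2. Without the filter on low counts Ep300, Hdac1, Hdac4 and Smarca2 were not called (adjusted p from 0.0104 to 0.0360). On total counts Hdac1 and Smarca2 were not called (0.62 and -0.35, adjusted p = 0.0118 and 0.0105). With the replicate block Ep300, Hdac1 and Hdac4 were not called (adjusted p from 0.0118 to 0.0169).

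**Figure D3:**
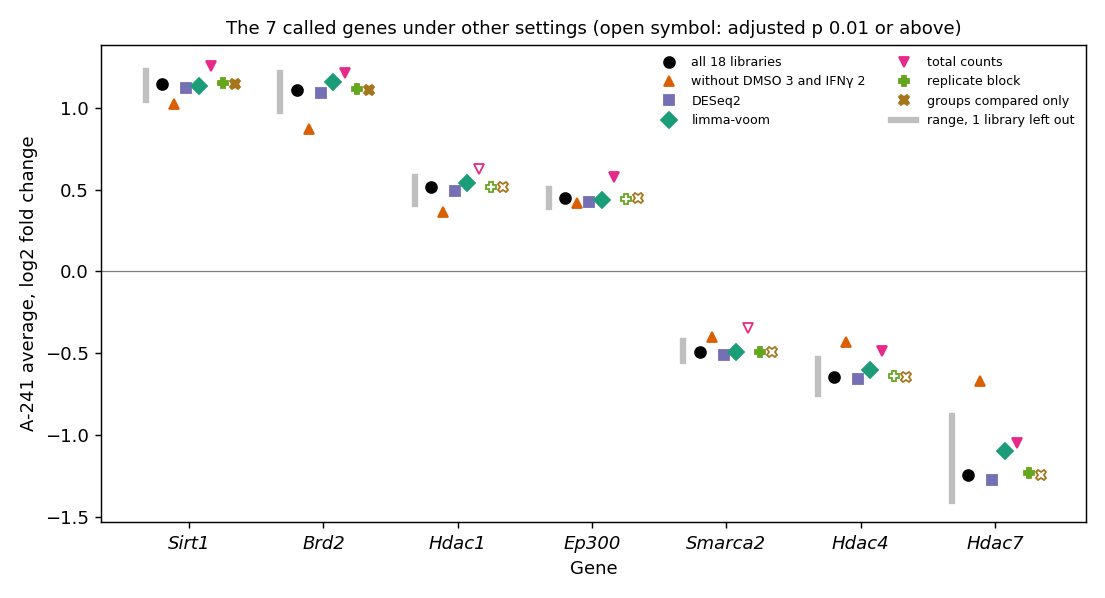
Log2 fold change with A-241 on average (y axis) of the 7 called genes (x axis) with all 18 libraries, under 6 other settings, and over the fits with 1 library left out (grey bar). Open symbols have an adjusted p of 0.01 or above; no value changes sign, and the value of Hdac7 without DMSO replicate 3 and IFNγ replicate 2 is -0.67.

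Brpf3, a scaffold of MYST acetyltransferase complexes, had large values on few counts, 316 in all libraries. It was at 1.68, 2.68 and 0.690 CPM in DMSO, 3.99, 4.40 and 6.31 CPM with A-241 and 3.52, 5.14 and 3.94 CPM with A-485. With IFNγ it was at 2.70, 0.297 and 2.97 CPM, and with IFNγ and A-241 or A-485 at 2.61, 4.23 and 2.26 and 3.25, 6.10 and 3.41 CPM. All 6 libraries with A-485 were above the 6 without inhibitor, as for 1.04% of all genes. The averages of Brpf3 were 0.95 ± 0.35 (SE, edgeR adjusted p = 0.0684) with A-241 and 1.07 ± 0.35 (SE, edgeR adjusted p = 0.0855) with A-485. Brpf3 was lowest in DMSO replicate 3 and IFNγ replicate 2, and without them its averages were 0.62 and 0.74. Its relatives had, with A-241 and all libraries and then without those 2, Brpf1 (0.20 and 0.09) and Brd1 (-0.06 and 0.06).

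The genes for reader subunits of ISWI-type remodelers, Bptf and the BAZ genes, had A-241 averages, with all libraries and without DMSO replicate 3 and IFNγ replicate 2, of Bptf (-0.00354 and 0.13), Baz1a (-0.16 and -0.14), Baz1b (-0.04 and 0.04), Baz2a (-0.27 and 0.04) and Baz2b (-0.43 and -0.21), with Baz2b nearest to the threshold (edgeR adjusted p = 0.0457). The NuA4 bromodomain gene Brd8 and Atad2, for an ATPase of replicating chromatin, had values below 0 with all libraries and above 0 without those 2, at Brd8 (-0.34 and 0.09) and Atad2 (-0.27 and 0.15). Atad2 was at 73.2, 83.5 and 147 CPM in DMSO and 61.7, 141 and 67.2 CPM with IFNγ, the high values being those of the 2 libraries. The transcriptional cofactors had Trim24 (-0.20 and -0.27), Trim28 (0.25 and 0.21) and Trim33 (0.26 and 0.28). Of the 20 bromodomain genes tested 14 had values below 0 with all libraries, with a median of -0.07, and 7 without those 2, with a median of 0.07, beside 49.8 and 48.3% of all genes below 0.

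Whether the responses to A-241 were alike without and with IFNγ was asked next, in comparisons that share no library. Taken across the 49 genes, with genes no independent replicates of each other, both log2 fold changes had a Pearson r of 0.81 and a Spearman rho of 0.76, and 39 (79.6%) had the same sign, beside r of 0.72 and 78.4% over all genes tested. For the 2 A-485 comparisons the values were r of 0.66 and 38 of 49 (77.6%), beside 0.48 and 67.1%. Without DMSO replicate 3 and IFNγ replicate 2, r was 0.59 with A-241 (38 of 49 of the same sign), beside 0.66 over all genes, and 0.27 with A-485 (35 of 49), beside 0.39. No gene of the 49 was called in A-241 against DMSO by edgeR, where 4.35% of all genes were. There 14 had an unadjusted p under 0.05, and DESeq2 called 4, Hdac1 and Sirt1 higher and Hdac4 and Smarca2 lower. The shares of all genes under that unadjusted p, here and below, and by DESeq2 are not given, so these counts show no trait of the listed genes. Without DMSO replicate 3 and IFNγ replicate 2, edgeR called Hdac1 higher and Hdac7 and Smarca2 lower in A-241 against DMSO, beside 8.08% of all genes. With IFNγ, Sirt1 and Brd2 were called, 2 of 49 beside 4.09% of all genes (0.543% higher), and 8 genes had an unadjusted p under 0.05. The interaction of A-241 with IFNγ was called in none of the 49 by edgeR, DESeq2 or limma-voom, and 0.0334% of all genes were called. Only Hdac5 had an unadjusted p under 0.05 there by edgeR.

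**Figure D4:**
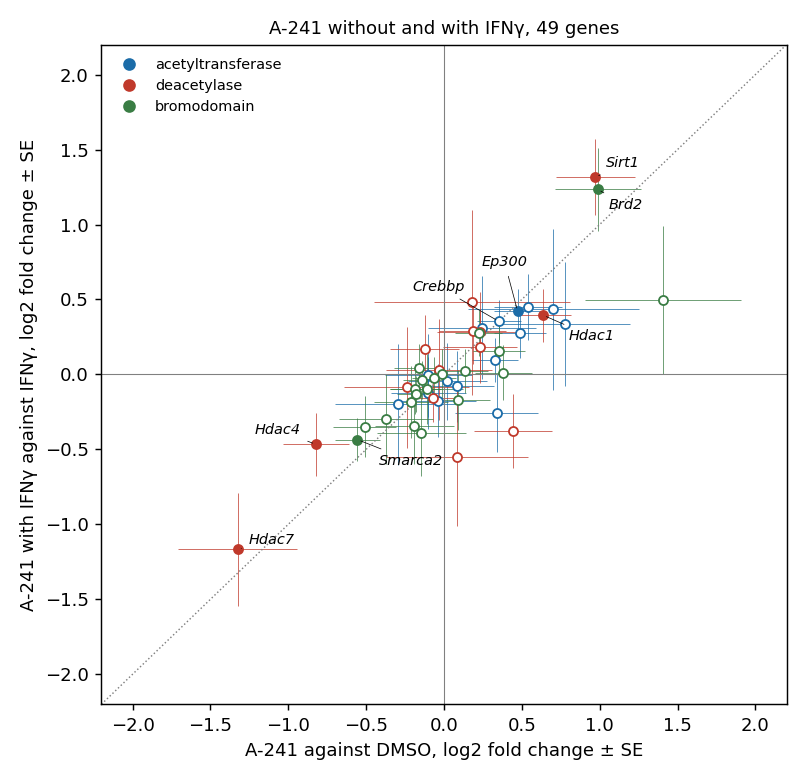
Log2 fold change ± SE of the 49 genes with A-241 in cells without IFNγ (x axis, against DMSO) and in cells with IFNγ (y axis, against IFNγ), with the line of equality dotted. Filled points are the 7 genes called on average, and all of them lie in the lower left or upper right quadrant, with 39 of the 49 genes having the same sign on both axes.

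Hdac5 was at 4.63, 5.51 and 5.86 CPM in DMSO and 6.13, 6.54 and 8.20 CPM with IFNγ. With A-241 it was at 6.92, 7.39 and 7.36 CPM and with A-241 and IFNγ at 4.99, 4.72 and 6.38 CPM. The IFNγ values were thus above their controls without A-241 and below them with it, on 513 Hdac5 counts in all libraries. The share of all genes with such a pattern is not given, and Hdac5 was described for having the lowest p. Its interaction was -0.82 ± 0.35 (SE, edgeR adjusted p = 1.00), so no reversal is shown. With A-485 Hdac5 was at 3.17, 5.52 and 3.48 CPM without and 4.01, 5.89 and 3.79 CPM with IFNγ. The next lowest p in that interaction were those of Kat2b, at -0.60 ± 0.37 (SE, edgeR adjusted p = 1.00), and Brpf1, at -0.37 ± 0.26 (SE, edgeR adjusted p = 1.00). In the interaction of A-485 with IFNγ, which was called in 0.00% of all genes and had no member at an unadjusted p under 0.05 by any of the 3 tools, the lowest p were those of Kat2b (-0.75 ± 0.38), Hdac8 (0.52 ± 0.31) and Sirt1 (0.50 ± 0.36).

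The response to A-485 was read next. On average 12 of the 49 genes had an unadjusted p under 0.05, 8 higher and 4 lower, and none was called by edgeR or limma-voom, while DESeq2 called Sirt1 alone. Sirt1 had the lowest p, at 0.73 ± 0.18 (SE, edgeR adjusted p = 0.0236), followed by Hdac7 at -0.87 ± 0.27 (SE, edgeR adjusted p = 0.0699) and Hdac4 at -0.46 ± 0.15 (SE, edgeR adjusted p = 0.0833). Ep300 had 0.29 ± 0.11 (SE, edgeR adjusted p = 0.136). The 7 genes called with A-241 had A-485 averages of the same sign, which were Sirt1 (0.73), Brd2 (0.37), Hdac1 (0.28), Ep300 (0.29), Smarca2 (-0.23), Hdac4 (-0.46) and Hdac7 (-0.87). Without DMSO replicate 3 and IFNγ replicate 2 the A-485 averages of Brd2, Hdac1, Smarca2, Hdac4 and Hdac7 were 0.13, 0.13, -0.13, -0.24 and -0.29, and 15 of the 49 values turned sign, none of them of these 7 genes. Both averages use the same control libraries, so the signs are not independent of each other.

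In A-485 against DMSO no gene of the 49 was called, beside 0.660% of all genes, and 5 had an unadjusted p under 0.05 by edgeR. The lowest p were those of Kat2a, at 0.43 ± 0.17 (SE, edgeR adjusted p = 0.268), Hdac7, at -0.91 ± 0.38 (SE, edgeR adjusted p = 0.322), and Brpf3, at 1.19 ± 0.51 (SE, edgeR adjusted p = 0.345). Hdac7 was at -0.47 there without DMSO replicate 3 and IFNγ replicate 2. Kat2a with A-485 was at 45.3, 46.3 and 48.2 CPM, each above the DMSO values. In A-485 with IFNγ against IFNγ, none was called beside 0.552% of all genes, and 7 had an unadjusted p under 0.05 by edgeR. There Sirt1 had 0.98 ± 0.26 (SE, edgeR adjusted p = 0.0673), Kat2b -0.74 ± 0.27 (SE, edgeR adjusted p = 0.203) and Crebbp 0.38 ± 0.14 (SE, edgeR adjusted p = 0.221). Kat2b was at 6.68, 8.33 and 6.07 CPM, each below the 10.3, 15.8 and 9.60 CPM of IFNγ alone. DESeq2 and limma-voom called none in either comparison.

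The compounds were then compared with each other, over the libraries without and with IFNγ, as 1 pair of compounds at doses that differ, 250 nM of A-241 and 1000 nM of A-485. None of the 49 genes was called by edgeR, DESeq2 or limma-voom, beside 1.25% of all genes, and 7 had an unadjusted p under 0.05 by edgeR. Brd2 was nearest to the threshold, at 0.74 higher on the log2 scale with A-241 (95% interval 0.33 to 1.16, edgeR adjusted p = 0.0600). It was called without DMSO replicate 3 and IFNγ replicate 2, at 0.74, and with only the groups compared in the fit, at 0.75. Baz1a was at -0.25 ± 0.08 (SE, edgeR adjusted p = 0.178) and Hdac5 at 0.53 ± 0.18 (SE, edgeR adjusted p = 0.182). For Sirt1 the interval was 0.05 to 0.78, for Smarca2 -0.49 to -0.05, for Hdac7 -0.95 to 0.19, for Hdac4 -0.50 to 0.13, for Hdac1 -0.03 to 0.50, for Ep300 -0.06 to 0.38 and for Crebbp -0.17 to 0.26. These intervals do not show that the compounds act alike on these genes.

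IFNγ was tested against its absence to see whether the cytokine itself moved the genes. None of the 49 was called in IFNγ against DMSO, where 1.30% of all genes were, and none had an unadjusted p under 0.05 by edgeR. On average over the 3 comparisons, 5 had an unadjusted p under 0.05 and all of these were lower. DESeq2 and limma-voom called none either way. Without DMSO replicate 3 and IFNγ replicate 2, 4 had such a p by edgeR in IFNγ against DMSO and 11 on average. None was called there, beside 2.01% and 3.73% of all genes. Trim24 was at 7.78, 11 and 9.31 CPM in DMSO and 7.73, 5.65 and 8.03 CPM with IFNγ, at 7.97, 8.39 and 7.99 and 4.99, 8.13 and 5.76 CPM with A-241 without and with IFNγ, and at 5.81, 7.43 and 9.74 and 5.73, 5.89 and 4.74 CPM with A-485. Its groups overlapped, and its average was -0.40 ± 0.14 (SE, edgeR adjusted p = 0.204). Baz1a averaged -0.20 ± 0.07 (SE, edgeR adjusted p = 0.209) and Brd1 -0.24 ± 0.09 (SE, edgeR adjusted p = 0.298). Baz1a went from 82.0, 87.0 and 85.5 CPM to 74.9, 77.3 and 69.6 CPM in the cells without inhibitor, and Brd1 from 53.2, 57.2 and 70.7 to 42.3, 56.8 and 47.3 CPM. Brpf1 was at 16.8, 14.7 and 10.3 CPM in DMSO and 18.8, 16.6 and 18.7 CPM with IFNγ, a log2 fold change of 0.36 ± 0.19 (SE, edgeR adjusted p = 0.645). Ep300 averaged -0.23 ± 0.09 (SE) and Crebbp -0.14 ± 0.08. The median over the 49 genes was -0.06, with 32 of them (65.3%) below 0, beside a median of -0.00198 and 50.4% over all genes.

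Partner subunits of the same complexes, and readers outside the 52 genes, were counted from 10 lists with 118 genes, of which 115 were tested. With A-241 on average 6 were called higher and 5 lower by edgeR, beside 3.39% and 7.05% of all genes by edgeR. DESeq2 called 11 higher and 7 lower, and its share of all genes is not given here, so its counts are not read beside those shares. The median of the 115 was 0.01. With only the groups compared in the fit, Atxn7, Jade2 and Sap30 kept their calls with A-241 and the other 8 lost them, at adjusted p from 0.0116 to 0.0439. With the replicate block Ing3, Sap130, Ing2 and Bcl7a lost theirs, at adjusted p from 0.0103 to 0.0166. Without DMSO replicate 3 and IFNγ replicate 2, 17 were called higher and 8 lower, beside 16.0% of all genes, and the median was 0.07. The lists were chosen with earlier results of these data known.

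Among partners of acetyltransferases, Taf12 and Atxn7 of the SAGA list rose, at 0.65 ± 0.13 (adjusted p = 0.00154) and 0.66 ± 0.12 (adjusted p = 0.000732) by edgeR, with 16 of 21 genes of that list above 0. Ing3 and Epc1, subunits of NuA4, rose at 1.38 ± 0.33 (adjusted p = 0.00790) and 0.54 ± 0.11 (adjusted p = 0.00165), with 11 of 14 above 0. Without DMSO replicate 3 and IFNγ replicate 2, 15 of the SAGA list and 10 of the NuA4 list were above 0. Sign counts of the other lists are not given and the genes share libraries, so these counts show no trait of the lists. The call of Ing3 held in 5 of 18 fits with a library left out, and its value was 0.98 without DMSO replicate 3 and IFNγ replicate 2. Jade2, a scaffold of the MYST complex of KAT7, fell by the largest amount of the 115, at -1.83 ± 0.20 (adjusted p = 9.15e-06).

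Among partners of deacetylases, the SIN3 subunit gene Sap30 fell at -1.22 ± 0.18 (adjusted p = 0.000152), while Sap130 and Ing2 of the same list rose at 0.65 ± 0.15 (adjusted p = 0.00577) and 0.51 ± 0.12 (adjusted p = 0.00546). The calls of Sap130 and Ing2 held in 8 and 11 of 18 fits with a library left out. Chd3, a NuRD ATPase, fell at -0.57 ± 0.11 (adjusted p = 0.00178). Bcl7a of the BAF list fell at -0.82 ± 0.19 (adjusted p = 0.00533), and was called in 12 of 18 such fits. Phip, a bromodomain gene outside the 52, fell at -0.58 ± 0.11 (adjusted p = 0.00165). The YEATS reader and CoREST lists gave no call by edgeR, with 0 and 1 genes at an unadjusted p under 0.05. With A-485 on average, Jade2 at -0.98 ± 0.19 (adjusted p = 0.00516) and Sap30 at -1.13 ± 0.18 (adjusted p = 0.00113) were called lower, Jade2 in 12 of 18 fits with a library left out, and none was called higher. Both calls were lost with only the groups compared, at adjusted p of 0.0153 and 0.0106. With IFNγ on average none of the 115 was called by edgeR, with 18 at an unadjusted p under 0.05, while DESeq2 called 1 higher and 2 lower and limma-voom 1 higher.

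**Figure D5:**
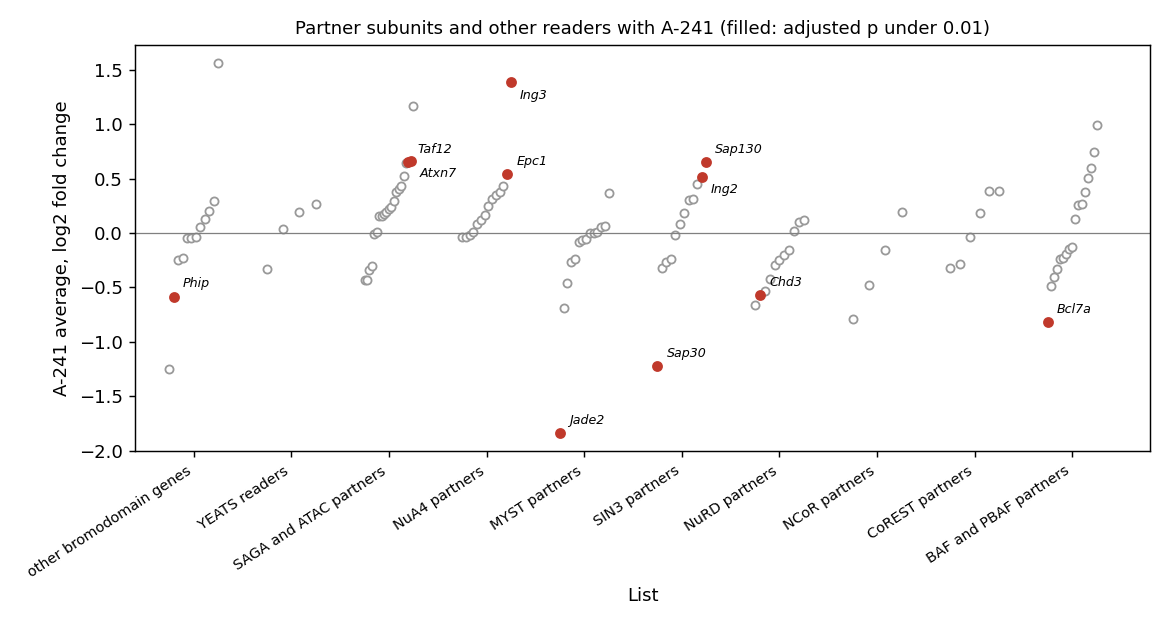
Log2 fold change with A-241 averaged over cells without and with IFNγ (y axis) of each of the 115 tested genes in 10 lists of partner subunits and other readers (x axis, genes in each list ordered by value). Filled red points are the 11 genes called at an adjusted p under 0.01, from Jade2 at -1.83 to Ing3 at 1.38.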

How the data were processed

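Raw counts per gene were deposited for 18 QuantSeq 3′ libraries (75 base reads). Per the labels and the study's methods, the authors trimmed reads with cutadapt 1.7, aligned them to mm10 with HISAT2 2.1.0 and counted them on exons with featureCounts, a read on several genes being counted for each. No molecular identifiers were used, so counting intervals cover counting error only. Rows were named by GENCODE vM21 (42548 of 43629 matched), which gave the coordinates. Promoters came from RefSeq (GRCm38.p6).

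With edgeR 4.0.16 in R 4.3.3, 11964 genes kept by filterByExpr were scaled by TMM and fitted with glmQLFit, with 1 mean per group over all 18 libraries (common coefficient of variation 0.263). Contrasts were tested with glmQLFTest, adjusted by Benjamini-Hochberg over all genes tested and called under 0.01. Member CPM use TMM-scaled library sizes, and marker CPM and limits use total counts. Alternatives were DESeq2 1.42.0, limma-voom (limma 3.58.1), RLE factors, total counts, no filter, a replicate block, only the groups compared, and left-out libraries. The scripts were tested on simulated counts with known changes in the A-241 groups. On average over these groups, 5 of 66 genes changed by 0.5 on the log2 scale in either direction were called (7.58%). Of genes changed by 1, 30 of 66 were called (45.5%), and of those changed by 2, 61 of 68 (89.7%). A gene not called is thus not shown to be unchanged. The simulation changed a smaller share of genes than the 10.4% of all genes called with A-241 on average. Shares recovered in these data may therefore differ from the simulated ones. Python 3.11.15 with pandas 2.3.3 and matplotlib 3.10.9 made summaries and plots.

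The genes and lists were chosen with earlier results of these data known. Values are given in full for Ep300, Crebbp, genes called in any comparison and the 3 of lowest p in each, and for list genes called on average. A list gene is not reported here and was left out of the list counts. The authors' other assays were not used here.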

Additional observations from a re-analysis of the deposited data

How the results depend on the processing

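Calls of the 11 comparisons were recomputed under the alternatives. Counts of genes called among the 49 differed by over 1.5 times as follows. With A-241 on average, the 4 called higher became 2 without the filter, with the replicate block and with only the groups compared, and the 3 called lower became 1 without the filter and 0 with only the groups compared. In A-241 with IFNγ against IFNγ, the 2 called higher became 1 with RLE factors, total counts or the replicate block, and 0 with only the groups compared. In A-241 against DMSO, where none was called, DESeq2 called 2 higher and 2 lower, and leaving out DMSO replicate 3 and IFNγ replicate 2 together gave 1 and 2. In A-241 against A-485, 1 was called higher with only the groups compared and without those 2 libraries. With A-485 on average DESeq2 called 1 higher, and with A-241 on average it called Crebbp also. With 1 library left out, calls ranged from 0 to 1 higher and 0 to 3 lower in A-241 against DMSO, from 0 to 2 higher in A-241 with IFNγ against IFNγ, and from 2 to 3 higher and 1 to 3 lower with A-241 on average. The cause was not tested. The other counts stayed within 1.5 times. With A-241 on average, Sirt1 and Brd2 were called under the 8 alternatives other than leaving out 1 library, and with each library left out.

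Among values in the tests of genes called in any comparison, of the lowest p, or of Ep300 and Crebbp, signs turned in 3. Without IFNγ replicate 2, Hdac7 with IFNγ on average was -0.0403 and Sirt1 0.00207, and without A-485 with IFNγ replicate 2, Crebbp in A-241 against A-485 was -0.000435. With each library left out these values ranged from -0.0403 to 0.337, from -0.119 to 0.00207 and from -0.000435 to 0.0891. Total counts shifted the median of all genes with A-241 to 0.13, so log2 values under that scaling are relative to it. Over all 49 genes, leaving out DMSO replicate 3 and IFNγ replicate 2 turned the sign of 16 values with A-241 on average, 15 with A-485 and 7 with IFNγ, and of 0 in A-241 against A-485, and a further 16, 22, 14 and 3 moved by over 1.5 times.

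Same-numbered libraries of 2 groups had deviations correlated at -0.80 to 0.48 over 45 pairs, with 15 above 0.1, and 5 of 18 libraries were closest to their own number, so the numbers were not taken to pair samples. A count of 3 is 0.382 to 0.878 CPM, which limits Hdac9, Cecr2, Hdac11, Brpf3 and Sirt6.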
